A study of Mus musculus with 2 samples.

Results

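The microRNAs described here are 10 genes of mouse chromosome 12 that lie between the noncoding genes Meg3 and Dio3os, in the imprinted Dlk1-Dio3 region. They are microRNA genes of the region outside the group antisense to Rtl1 and outside the distal cluster of 39 genes. Position and annotation alone do not give these 10, since 4 further genes, named below, fit the same rule. The 10 were chosen with earlier results of these data known. From the proximal to the distal end they are Mir770, Mir673, Mir493, Mir337, Mir540, Mir665, Mir341, Mir1188, Mir370 and Mir1247. They are 10 of 67 microRNA genes annotated between the 2 noncoding genes, and 10 of 2202 in the count files. Of the remaining 57, 9 form the anti-Rtl1 group, 39 the distal cluster, and 5 lie opposite that cluster on the minus strand. The last 4 fit the same position rule, are not among the 10 and carried almost no reads. Mir1906-1 and Mir882 had 0 counts in both libraries. Mir3544 had 0 counts in replicate 2 and 2 in replicate 1, and Gm23912 had 0 and 1.

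MicroRNA libraries with fragments under 30 nt were made from total RNA of hippocampus (labelled as a layer of it), a brain structure of learning and memory, taken from male B6CASTF1/J mice aged 10 days. These mice are first-generation hybrids of the strains C57BL/6J and CAST/EiJ. There was 1 group of 2 biological replicates, each labelled with 3 males, and no treatment, mutation or control group. Both replicates carry 1 donor identifier in the labels, so the spread between them may in part be technical.

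In the Dlk1-Dio3 region the protein-coding genes Dlk1, Rtl1 and Dio3 are expressed mainly from the paternal chromosome, and the noncoding genes Meg3, Rian and Mirg, with the microRNAs and small nucleolar RNAs they carry, from the maternal one. A microRNA is cut from a hairpin precursor, and either arm of the hairpin can yield a mature strand. The seed, bases 2 to 8 of the mature strand, pairs with target transcripts. The region's noncoding RNAs are known for high expression in brain and for roles in neuronal and metabolic development.

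By GENCODE M21, only some of these hairpins lie inside the noncoding gene they are grouped with. Mir770 lies in an exon of Meg3, at chr12:109563692-109563785 on the plus strand (mm10, as for all positions), 7941 bases before the annotated end of that gene. Mir673 (chr12:109571990-109572080) starts 264 bases beyond the annotated end of Meg3. With Mir493 (chr12:109580233-109580315), Mir337 (chr12:109585789-109585885), Mir540 (chr12:109586080-109586146) and Mir665 (chr12:109586314-109586407), it is among 5 genes with no annotated host on their strand. Mir341 (chr12:109611500-109611595), Mir1188 (chr12:109611822-109611941) and Mir370 (chr12:109618258-109618336) lie in introns of Rian. Mir1247 (chr12:110278048-110278129) stands apart: it lies on the minus strand in an exon of Dio3os, 659712 bases from Mir370, and 939 bases from the annotated start of Dio3, which encodes the deiodinase that inactivates thyroid hormone.

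The mature sequences are printed because the counts are per hairpin and cannot say which arm was read. All 10 genes matched the RefSeq microRNA table (GRCm38.p6), with 20 mature strands, given here 5′ to 3′ with the seed in capitals.
miR-770-5p: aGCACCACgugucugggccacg
miR-770-3p: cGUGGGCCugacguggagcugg
miR-673-5p: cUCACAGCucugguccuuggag
miR-673-3p: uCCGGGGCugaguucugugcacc
miR-493-5p: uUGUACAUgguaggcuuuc
miR-493-3p: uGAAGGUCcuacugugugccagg
miR-337-5p: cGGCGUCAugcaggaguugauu
miR-337-3p: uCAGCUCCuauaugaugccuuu
miR-540-5p: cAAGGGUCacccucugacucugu
miR-540-3p: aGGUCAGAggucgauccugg
miR-665-5p: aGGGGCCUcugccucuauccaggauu
miR-665-3p: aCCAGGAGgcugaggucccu
miR-341-5p: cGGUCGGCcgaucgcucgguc
miR-341-3p: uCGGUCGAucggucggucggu
miR-1188-5p: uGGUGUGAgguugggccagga
miR-1188-3p: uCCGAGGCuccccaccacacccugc
miR-370-5p: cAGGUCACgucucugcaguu
miR-370-3p: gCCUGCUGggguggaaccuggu
miR-1247-5p: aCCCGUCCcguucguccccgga
miR-1247-3p: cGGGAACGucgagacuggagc

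The 20 seeds were all different, so no 2 of these genes belong to a shared seed family. Of the 20, 17 were found in no other gene of the table. The seed of miR-370-5p was shared with miR-1193-3p, the product of a gene in the distal cluster of the same region. Those of miR-673-5p and miR-540-3p were shared with miR-6985-3p and miR-6915-5p, from genes on chromosomes 19 and 10. The partners are shown for comparison, again with seeds in capitals.
miR-1193-3p: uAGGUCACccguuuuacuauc
miR-6985-3p: cUCACAGCcaccuccucacag
miR-6915-5p: aGGUCAGAgcagauggagguucgu

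Mir1193 stood at 105.9 CPM in replicate 2 and at 141.4 CPM in replicate 1, where CPM is counts per 1000000 counts on microRNA genes. Mir6985 had 9.15 and 2.28 CPM, and Mir6915 had 5.44 and 3.74 CPM, in the same order. All 3 genes lay far below the member gene that shares a seed with them. Counts per hairpin cannot say whether the arms with the shared seed differ in the same way. The CG dinucleotide occurred in 7 of the 20 member seeds, against 13.0% of the seeds of all 1679 mature names in the table.

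Of 10106239 reads in replicate 2, 3495401 were counted on the sense strand of microRNA genes, and of 12369585 in replicate 1, 4815761. A gene with 0 counts could still have had up to 0.858 CPM in replicate 2, or 0.623 CPM in replicate 1. These limits, and the exact Poisson 95% intervals below, cover counting error only. Neuronal markers were present, at 2.99% of counts in replicate 2 and 2.49% in replicate 1 over 17 genes, with none at 0 in both libraries. Of the 17, 14 share a run of 20 bases with another microRNA gene. Their reads that fit several places were left out, so low values such as those of Mir124a-1 (3.15 and 2.70 CPM) cannot show a low level. The list was mixed: of 15 genes tested below, 8 were higher in replicate 2 and 7 lower. Mir132 had 9936 and 4187 CPM, and Mir153 had 17.7 and 88.0 CPM. Sums over the marker genes of other cells were as follows. The 3 red blood cell genes summed to 76.4 CPM in replicate 2 and 1229 CPM in replicate 1, and the 7 choroid plexus and ciliated cell genes to 5333 and 2582 CPM; the red blood cell difference was in Mir451a and Mir144, while Mir486 had 28.3 and 31.6 CPM. Oligodendrocyte genes (3) summed to 1740 and 1037 CPM, where 2 were higher in replicate 2 and Mir219a-1 was lower, at 19.5 and 38.4 CPM. The endothelial gene Mir126a had 9301 and 14888 CPM, and mural genes (2) summed to 4390 and 3962 CPM. Immune cell genes (4) summed to 906.3 and 495.04 CPM. Most of that sum was Mir150, at 775.9 and 372.3 CPM. Mir155 had 84.1 and 78.3 CPM and Mir223 had 13.4 and 3.11 CPM, while Mir142 had 32.9 and 41.3 CPM. Liver, striated muscle and endocrine lists (1, 5 and 3 genes) had 31.5, 32.6 and 1106 CPM in replicate 2 and 39.5, 102.4 and 1087 CPM in replicate 1, and 4 of the muscle genes, the Mir1a and Mir133a copies, were at 0. Those 4 muscle genes also share a run of 20 bases with another microRNA gene, so their counts of 0 cannot show absence. The part of the listed cell types in the differences between the libraries was not tested.

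The 10 genes together made up 4.16% of counts in replicate 2 (exact Clopper-Pearson 95% interval 4.13% to 4.18%) and 5.34% in replicate 1 (5.32% to 5.36%), a mean of 4.75% ± 0.839 (SD, n = 2). Within the counts of the 58 genes of the 3 groups, that was 19.6% in replicate 2 and 22.1% in replicate 1. Mir770 alone made up 71.6% of the members' counts in replicate 2 and 79.0% in replicate 1. Without it the other 9 genes held 1.18% of all counts in replicate 2, against 1.12% in replicate 1. Reads that fitted several places, 39.8% in replicate 2 and 37.7% in replicate 1, are not in these counts. Genes with near-identical copies can thus be undercounted, while none of the members has such a copy. The shares hold for the counted reads only.

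**Figure D1:**
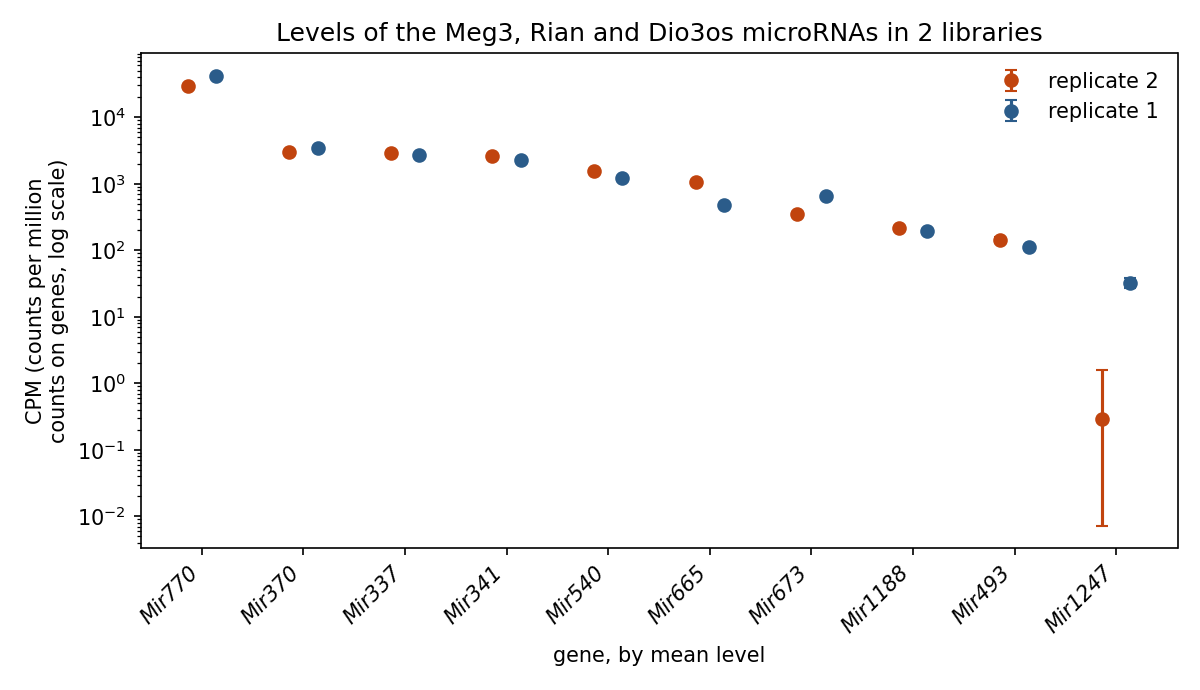
Level of each of the 10 microRNA genes in CPM on a log axis, for replicate 2 (left point of each pair) and replicate 1 (right point), ordered by mean level; bars are exact Poisson 95% intervals of the count. Mir770 stands above all others in both libraries, Mir665 and Mir673 change places between the libraries, and Mir1247 falls away in replicate 2 only.

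Mir770, the hairpin inside Meg3, was the most abundant of the 10. It had 104011 counts in replicate 2 and 203278 in replicate 1, which gave 29757 CPM (interval 29576 to 29938) and 42211 CPM (42028 to 42395). It ranked 8th and 6th among all 2202 genes. Its mean of 35984 ± 8807 CPM (SD, n = 2) was 11.1 times that of the next member, Mir370, and the ratio held within each library, at 9.97 in replicate 2 and 12.1 in replicate 1. These ratios compare read counts of different hairpins, and whether these are captured equally well was not tested. Replicate 2 was lower, by 0.50 on the log2 scale (log2 ratio -0.50, replicate 2 over replicate 1, with 0.5 counts added), which is below the 2-fold minimum used for a call.

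Mir673, the first hairpin past the annotated end of Meg3, lay far under its neighbour. Its 1229 counts in replicate 2 and 3204 in replicate 1 gave 351.6 and 665.3 CPM, and Mir770 was 84.6 and 63.4 times as high. The 2 hairpins lie 8204 bases apart. Its log2 ratio of -0.92 was not called with library totals, but passed the 2-fold minimum under both other scalings, at -1.01 with TMM and -1.09 with DESeq2 size factors.

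Mir493 and Mir337 follow on the same strand. Mir493, whose human counterpart was described as a suppressor of metastasis in colon cancer cells, reached 143.05 CPM in replicate 2 (500 counts), against 111.7 CPM in replicate 1 (538 counts), the lowest level among the 9 plus-strand members in both libraries. Mir337, 5473 bases on, had 2880 CPM (2824 to 2936) in replicate 2 and 2722 CPM (2676 to 2769) in replicate 1. It was 20.1 and 24.4 times as high as Mir493.

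Mir337 is read against an annotated gene on the other strand. The hairpin of Mir3544 (chr12:109585813-109585873, minus strand) is the exact reverse complement of an inner stretch of the Mir337 hairpin. The mature strands of Mir3544 are shown to compare with those of Mir337 above.
miR-3544-5p: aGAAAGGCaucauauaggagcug
miR-3544-3p: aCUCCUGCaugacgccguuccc

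On the sense strand Mir337 had 10065 counts in replicate 2 and 13109 in replicate 1, while Mir3544 had 0 and 2. In the unstranded column of the same files both genes were at 0 in both libraries, since reads that overlap 2 genes are set aside there as ambiguous. The reads of Mir337 equalled 4.75% of those ambiguous reads in replicate 2 and 4.66% in replicate 1. The other 9 members had the same count in the sense and unstranded columns, and 0 antisense counts.

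Mir337, Mir540 and Mir665 lie within 619 bases, and their levels went down in that order along the strand. Mir540, annotated in rodents, had 1543 CPM (1503 to 1585) in replicate 2 and 1210 CPM (1179 to 1241) in replicate 1. Mir665 had 1051 CPM (1017 to 1085) in replicate 2 and 479.7 CPM (460.3 to 499.6) in replicate 1, from 3672 and 2310 counts. Mir337 was thus 2.74 times as high as Mir665 in replicate 2 and 5.67 times in replicate 1, so the proportions within this triplet differed between the libraries. The log2 ratios of the 3 genes were 0.081, 0.35 and 1.13 in strand order.

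Next come the 3 hairpins in introns of Rian. Mir341, known from rodents, had 2626 CPM (2572 to 2680) in replicate 2 and 2310 CPM (2267 to 2353) in replicate 1. Mir1188, which starts 226 bases past the end of Mir341, reached 216.9 CPM in replicate 2 (758 counts), against 195.8 CPM in replicate 1 (943 counts). Mir341 was 12.1 times as high as Mir1188 in replicate 2 and 11.8 times in replicate 1, so the proportion of this pair was nearly the same in both libraries. Mir370, reported in human liver cells to act on fatty acid oxidation, had 2985 CPM (2928 to 3043) in replicate 2 and 3483 CPM (3430 to 3536) in replicate 1. Mir370 was 1.14 times as high as Mir341 in replicate 2 and 1.51 times in replicate 1, and 13.8 and 17.8 times as high as Mir1188. Summed, the 3 made up 0.583% of counts in replicate 2, against 0.599% in replicate 1.

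Mir1247, in Dio3os, differed most between the libraries. Its human counterpart is known from cartilage, where it acts on SOX9. It had 1 count in replicate 2, or 0.286 CPM (0.00724 to 1.59), and 156 counts in replicate 1, or 32.4 CPM (27.5 to 37.9). At the level of replicate 1, 113.2 counts would have fallen in replicate 2. The level in replicate 1 was 113.2 times that in replicate 2, with a counting interval of 20.03 to 4501. The gene ranked 635th among 2202 in replicate 2 and 265th in replicate 1. Among all genes it was the only one with 100 or more counts in 1 library and at most 1 in the other. These cutoffs lie close to its own counts, so the statement holds for them only.

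**Figure D2:**
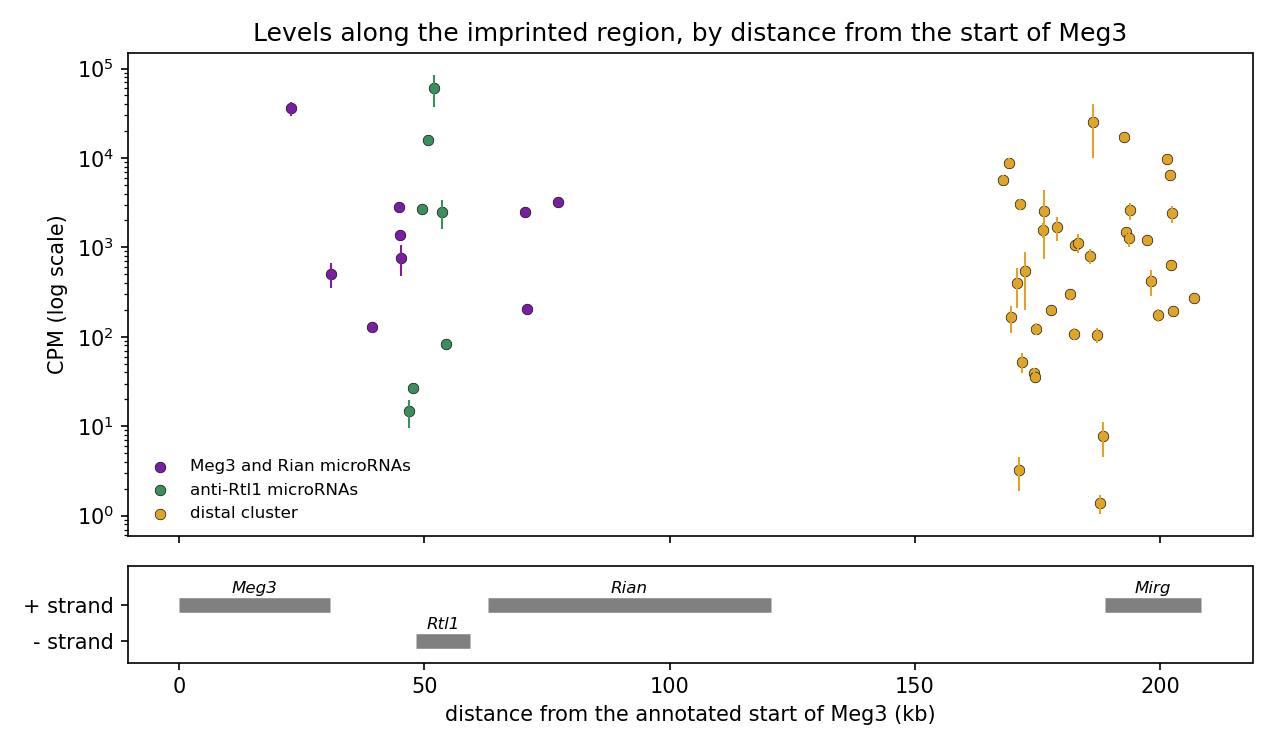
Mean level in CPM (log axis) of the microRNA genes with counts against the distance of each from the annotated start of Meg3 in kb, with a vertical line joining the 2 libraries and the host genes drawn below by strand; Mir1247, 737.05 kb away, is outside the plot. Among the 9 plotted members the mean runs from 35984 CPM at Mir770 to 127.4 CPM at Mir493.

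By mean level the order was Mir770, Mir370, Mir337, Mir341, Mir540, Mir665, Mir673, Mir1188, Mir493 and Mir1247. Of the 9 neighbouring pairs in that order, 8 had libraries that did not overlap, meaning that the lower library of the higher gene lay above the higher library of the lower gene. The exception was Mir665 and Mir673, where Mir665 was 2.99 times as high in replicate 2 and 0.721 times as high in replicate 1. Mir370 and Mir337 were close, at means of 3234 ± 352 and 2801 ± 111 CPM, as were Mir337 and Mir341, at 2801 ± 111 and 2468 ± 223 CPM (SD, n = 2 each). Of all 45 pairs of members, 44 stood in the same order in both libraries. Each of the first 9 genes reached 2 CPM in both libraries, with Mir1247 below it in replicate 2.

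For the 3 most abundant members, the genes nearest to them in the 2 values of log2(CPM + 1) all lay outside chromosome 12. For Mir770 they were Mirlet7g (52865 CPM in replicate 2 and 50277 in replicate 1, at a distance of 0.87) and Mir149 (19256 and 25508, at 0.96). For Mir370 they were Mir107 at a distance of 0.070 and Mir328 at 0.078, and for Mir337 they were Mir1983 at 0.15 and Mir181c at 0.16. With 2 libraries, such likeness is a likeness of level.

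The libraries were compared gene by gene with an exact two-sided binomial test given their totals, over the 540 genes with at least 10 counts. A gene was called at an adjusted p (Benjamini-Hochberg, over all 540) below 0.05 and a log2 ratio of at least 1 in size. All 10 members entered, and 2 were called: Mir665, higher in replicate 2, and Mir1247, lower in replicate 2. Among all tested genes 18.7% were called, 11.5% as higher in replicate 2 and 7.22% as lower, so 2 of 10 is close to the background. The test compares these libraries, not conditions. It allows for counting error only, and with the adjusted p alone 9 of 10 members and 55.7% of all tested genes passed. The members had a median log2 ratio of 0.11, against 0.17 for all tested genes, and a median size of the ratio of 0.35, against 0.54.

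Mir665 had a log2 ratio of 1.13 (exact binomial test, adjusted p = 4.89e-197, over 5 settings between 2.44e-198 and 2.79e-143). With DESeq2 size factors its ratio was 0.96, and it was not called there. Mir1247 had a log2 ratio of -6.24 (exact binomial test, adjusted p = 5.52e-35, between 1.54e-38 and 6.07e-35 over the settings), the lowest of all 540 tested genes with 0.5 counts added. With 5 counts added its ratio was -4.28, and that of the red blood cell gene Mir451a was lower, at -4.74. With 0.5 counts added the next lowest ratios belonged to Mir741 (-5.47, 0 counts in replicate 2 and 30 in replicate 1) and to Mir451a (-4.78).

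The log2 ratios of the other members stood between -0.92 for Mir673 and 0.36 for Mir493. Mir370 had -0.22, Mir341 had 0.18 and Mir1188 had 0.15. With library totals Mir1188 was the member that missed the adjusted p (0.064, exact binomial test, 0.059 to 0.863 over the settings). Under TMM Mir337 missed it too (adjusted p = 0.870, exact binomial test), and under DESeq2 Mir341 (0.492) and Mir493 (0.0628) did, with Mir337 passing there. Positive ratios stood for 6 members with library totals, 5 under TMM and 4 under DESeq2. The signs of Mir337 and Mir1188 were the ones that turned. The median ratio over all 540 genes was 0.17, 0.086 and 0.0051 under these scalings.

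Summed over the 10 genes, replicate 2 was lower, with a log2 ratio of -0.36. That sum rests on Mir770: without it the log2 ratio was 0.074.

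**Figure D3:**
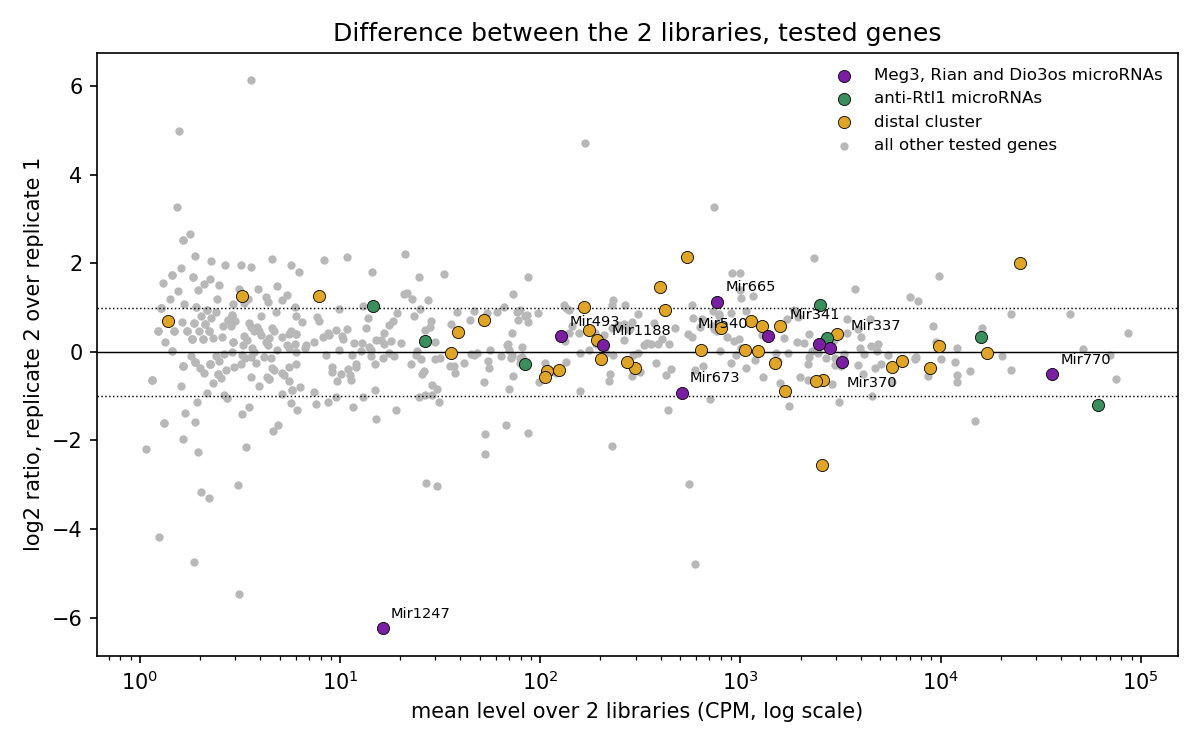
Log2 ratio of replicate 2 over replicate 1 against mean level in CPM (log axis) for the 540 tested genes, with the 10 members, the anti-Rtl1 group and the distal cluster coloured and dotted lines at a log2 ratio of 1 in size. Of the members Mir665 lies above the upper line at 1.13 and Mir1247 lies below all other genes at -6.24, with 0.5 counts added; with 5 counts added Mir451a is lower.

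In the other microRNA groups of the region, calls are again to be read against the 18.7% of all tested genes. Of the 9 anti-Rtl1 genes 7 were tested, and 2 were called higher in replicate 2 and 1 lower. The 2 were Mir434 (3378 CPM in replicate 2 and 1611 in replicate 1, log2 ratio 1.07) and the low gene Mir3070a (19.7 and 9.55 CPM, 1.04), neither of which was called under TMM or DESeq2 scaling. The lower one was Mir127, the most abundant gene of that group and known to act on Rtl1, at 37071 CPM in replicate 2 and 84779 in replicate 1 (log2 ratio -1.19). Mir433 (17747 and 14092 CPM) and Mir3070b (28.9 and 24.3 CPM), its second highest and second lowest tested genes, were not called.

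Of the 39 genes of the distal cluster 37 were tested, and 5 were called higher in replicate 2 and 1 lower. The 5 were Mir487b (log2 ratio 2.01), Mir329 (2.14), Mir380 (1.48), Mir544 (1.27) and Mir299a (1.02), and the lower one was Mir543 (-2.56). Under TMM and DESeq2 scaling 4 genes were called higher, and under DESeq2 2 were called lower. Mir487b, Mir299a and Mir3070a share a run of 20 bases with another microRNA gene, and their counts are uncertain to that extent. Mir382, at 16918 CPM in replicate 2 and 17117 in replicate 1, was not called, nor were the lowest tested genes Gm27379 and Mir1197. In sums, the anti-Rtl1 group held 6.13% of the counts of replicate 2, against 10.3% in replicate 1, and the distal cluster 10.9% and 8.56%. The medians of the log2 ratio were 0.11 for the 10 members, 0.30 for the tested anti-Rtl1 genes and 0.046 for the tested distal genes; under TMM the last was -0.040, and under DESeq2 -0.12, where that of the members was -0.053. No test of the difference between these groups was run.

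The hairpins of the 10 members were rich in G and C. Their median was 60.1%, with a range of 52.6% to 74.4%, and all 10 lay above the median of all 2202 hairpins, 50.8%. In the anti-Rtl1 group the median was 55.1%, with 6 of 9 above that mark, and in the distal cluster 43.6%, with 10 of 39 above it. The 4 genes with almost no reads that fit the same position rule are not in the members' values. They had 53.75% (Mir1906-1), 50.8% (Mir3544), 55.2% (Gm23912) and 44.2% (Mir882). The anti-Rtl1 group and the distal cluster each include 2 genes at 0 in both libraries. These are descriptions of the annotation and were not tested. Over the 540 tested genes the median was 53.1%, and 8 of the 10 lay above it. Folding energy per base, computed for each hairpin, had a median of -0.49 kcal/mol for the members, -0.40 for the anti-Rtl1 group and -0.41 for the distal cluster. It was -0.37 for all hairpins and -0.43 for those of the 540 tested genes. Mir1906-1, Mir3544, Gm23912 and Mir882 had -0.32, -0.39, -0.28 and -0.28. None of the 10 shared a run of 20 bases with another microRNA gene, whereas 49.2% of all genes did. Among the 540 tested genes 98 did, as did 2 of the 9 anti-Rtl1 genes and 6 of the 39 distal genes. Of the 4 genes left out of the members, Mir1906-1 did.

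**Figure D4:**
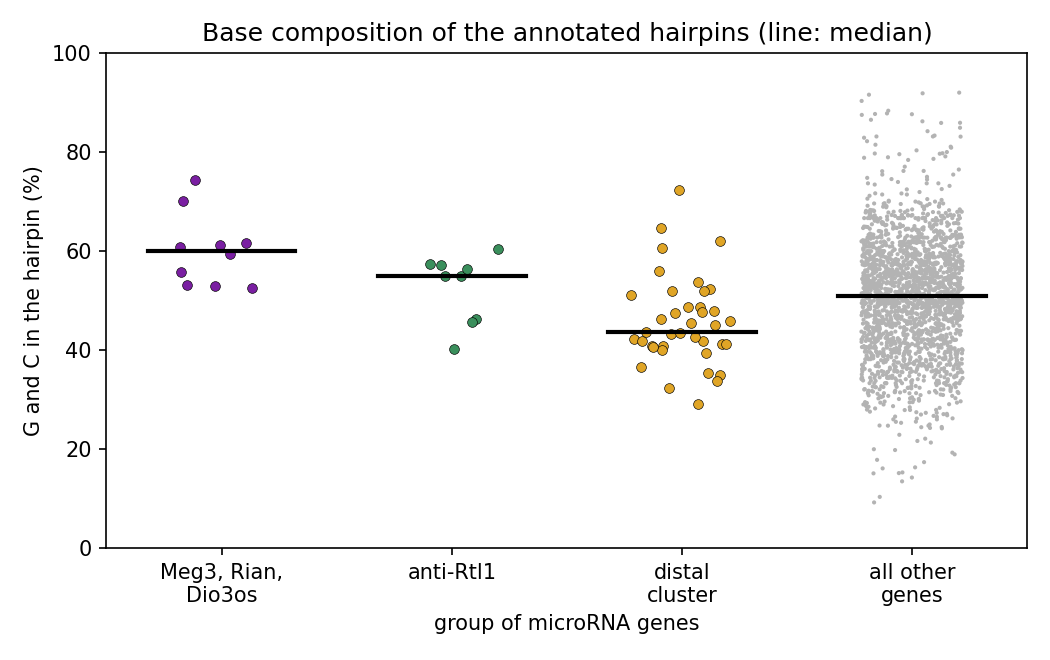
Share of G and C in the annotated hairpin of each microRNA gene in percent, for the 10 Meg3, Rian and Dio3os genes, the anti-Rtl1 group, the distal cluster and all other genes; each point is a gene and the line is the median. The medians of the first 3 groups are 60.1%, 55.1% and 43.6%.

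A pair of these hairpins stood out in sequence and are printed in full. Mir341 holds the letters CGGU 7 times, overlaps counted and read on its own strand, shown in capitals. That motif was chosen after the sequence was seen. It occurs at least once in 9.22% of all 2202 hairpins, and no other hairpin holds it more than 5 times.
Mir341 hairpin: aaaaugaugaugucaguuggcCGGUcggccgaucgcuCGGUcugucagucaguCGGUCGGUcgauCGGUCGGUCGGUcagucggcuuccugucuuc

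Mir1247 has the highest share of G and C of the 10, 74.4%, and holds CG 14 times, shown in capitals. The median over all hairpins is 1, and 1.59% of all genes hold as many as Mir1247 or more. The hairpin begins 43 bases past the annotated start of Dio3os.
Mir1247 hairpin: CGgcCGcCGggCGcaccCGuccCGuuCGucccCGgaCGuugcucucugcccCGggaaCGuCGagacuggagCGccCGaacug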

How the data were processed

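The deposited values were raw read counts per microRNA gene, 1 file per library, in unstranded, sense and antisense columns. The submitters' processing notes name mm10 and GENCODE M21, and each deposited count file came from the reads of 1 library. Aligner and counter: not given in the sources used here. The sense column was the stranded one with the larger total. The summary lines for reads not counted on a gene did not enter library sizes: 39.8% of reads in replicate 2 and 37.7% in replicate 1 fitted several places, 19.5% and 17.7% were unmapped, and 6.09% and 5.74% fell outside genes.

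All 2202 identifiers matched GENCODE M21, which gave symbols, hosts (a longer gene holding the whole hairpin on its strand) and hairpins. CPM was computed from the counts. With 1 group no edgeR group test exists, so libraries were compared by the exact binomial test over all genes, tested on simulated data with known ratios. The simulated counts held counting error only, as the test assumes. They do not show how the test behaves when libraries vary beyond that. The members and lists were chosen with earlier results of these data known. All 10 members were named. Of the other groups, the 2 highest, the 2 lowest and the called genes were. Mir3072, next to Mir410, was counted in the distal cluster, as the choice of members requires. Mir741, Mir451a and seed partners were named after their values were seen. Alternatives covered scaling, count filters, ratio minimum, strand, pseudocount, denominator, leaving out each replicate, and leaving out genes with copies.

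Python 3.11.15, SciPy 1.17.1, pandas 2.3.3, RNAfold 2.7.2, R 4.3.3, edgeR 4.0.16 and DESeq2 1.42.0 were used.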

Additional observations from a re-analysis of the deposited data

How the results depend on the processing

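The count of members called, 2, was 9 with no ratio minimum and 1 with a minimum log2 ratio of 2 (Mir1247) or with at least 10 counts in each library (Mir665), where Mir1247 is not tested by construction. It was 3 with TMM sizes, with Mir673 added, and 2 with DESeq2 factors, where Mir673 stood in place of Mir665. Over all genes 101 were called, 301 with no ratio minimum and 33 with a minimum log2 ratio of 2. Of these calls 61.4% were higher in replicate 2, against 52.1% under TMM and 45.5% under DESeq2 scaling. The summed share was 1.76% of all reads in the files, and between 4.16% and 5.34% with a replicate left out. The log2 ratio of the sum was -0.45 with TMM sizes, -0.53 with DESeq2 factors and 0.074 without Mir770. In the unstranded column it was -0.39, where Mir337 had 0 counts in both libraries and added nothing to the sum. Among single genes, the ratio of Mir337 was -0.0045 with TMM sizes and -0.086 with DESeq2 factors, and that of Mir1188 was -0.019 with DESeq2 factors. The order of levels matched in all 45 pairs in replicate 2 alone and in 44 in replicate 1 alone. Of 39 recomputed member ratios, 33 kept their sign and their side of the threshold. No paired analysis was possible because there is 1 group. The level of Mir1247 in replicate 2 rests on 1 count, with an interval of 0.00724 to 1.59 CPM. At its level in replicate 1, 113.2 counts would have fallen there.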
